A study of Mus musculus with 8 samples.

Results

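The genes of glycolysis and of the response to low oxygen were followed through 8 RNA-seq libraries of 4T1 tumors that differed in host mouse and in tumor CD95. They were 43 genes taken by symbol from the 25006 gene identifiers counted, and fell into 14 glycolytic enzymes, 7 carriers or regulators of glycolysis, 19 other targets of hypoxia and 3 subunits of the hypoxia-inducible factors (HIF). All 43 were counted in every library, with between 56 and 33179 reads per gene and library, and all 43 passed the filter on low counts that 15310 genes passed. The genes were chosen with earlier results of these data known, so their shares set beside those of all genes are descriptions.

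4T1 is a mouse mammary carcinoma line of Balb/c origin used to model triple-negative breast tumors. Its cells were placed in the mammary fat pad of NSG mice, which lack mature T, B and NK cells, or of Balb/c mice, which have an intact immune system, and the tumors grew for at most 20 days. Fas encodes CD95, a death receptor. The 4 groups, of 2 libraries each, combined a host (NSG or Balb/c) with a CD95 status of the tumor cells (wild type or knockout). Each wild-type group held 1 tumor library of the parental line and 1 of a line that stably expresses vCas9, and each knockout group held 1 library of CRISPR/Cas9 knockout clone 54 and 1 of clone 69. The knockout lines were clones and the wild-type lines were not described as such, so that clonal origin and CD95 status cannot be told apart. The replicates of a group were different lines, and p-values measure the spread between these lines. Only the tumor cells were edited, and host cells kept their own Fas. The ages of the mice and the number of tumors per library were not given in the labels.

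Oxygen controls the HIF proteins mainly after translation: prolyl hydroxylases mark the alpha subunits for destruction by the VHL ubiquitin ligase while oxygen is present. In low oxygen the alpha subunit (Hif1a or Epas1) accumulates and pairs with Arnt. The pair binds DNA at a short core sequence, of which ACGTG is a common form. It raises transcription of glucose transporters, glycolytic enzymes, lactate exporters, carbonic anhydrases, the angiogenic factor Vegfa and its own hydroxylases. Glycolysis splits glucose into pyruvate, which Ldha turns into lactate. Many tumors and activated myeloid cells run this pathway at a high rate also when oxygen is available. The RNA came from whole tumors, so fewer cells of a type and less RNA per cell cannot be told apart.

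Library totals ranged from 8680070 to 19655945 counts. Fas was read in all libraries, at 33.9 and 22.6 CPM (counts scaled to library sizes normalized by TMM) in NSG wild type, 29.5 and 12.9 in NSG knockout, 51.6 and 46.9 in Balb/c wild type and 27.1 and 33.7 in Balb/c knockout, so the knockout status rests on the labels. Levels of cell markers differed between libraries. The summed CPM of 6 epithelial markers, which should mark the carcinoma cells, lay between 539 and 4034, with the lowest and the highest sums in the pair of Balb/c knockout libraries, clones 54 and 69. The Balb/c clone 54 library stood apart also by its summed macrophage markers (9615 CPM, against 1526 to 3987 in the other 7 libraries) and neutrophil markers (519 CPM, against 1339 to 7563). Counts of members called without each of these libraries are given beside the results.

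The promoters show how ACGTG, a form of the core HIF sequence, is spread over these genes. RefSeq promoter sequences of GRCm38.p6 were matched by symbol for 37 of the 43 genes, with 52 start sites, and the 250 bases before each start were searched for ACGTG on both strands (read as CACGT on the strand printed). It was found in 24 of the 52 windows (46.2%), against 16.6% of all 32851 windows. The windows of these genes were richer in G and C, with a median of 62.8% against 52.4%, and among the 9121 windows with a GC content between 56.4% and 69.2%, the middle range of these genes, 22.4% held the motif. By role, 6 of 14 enzymes, 4 of 6 matched carriers and regulators, 10 of 15 matched other hypoxia targets and 1 of 2 matched HIF subunits had at least 1 window with it, in all 21 of 37 genes (56.8%), against 18.5% of the 27025 genes with a window. A match is a stretch of letters and not a measured binding site, and the results below do not depend on it. Other forms of the core were not searched, so a gene without a match is not shown to lack the core. The promoters of 5 genes are printed in part, chosen among those with the motif to stand for enzymes and other targets with different patterns below.

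The windows are on the plus strand, 5′ to 3′, with the motif in capitals. Ldha (lactate dehydrogenase A; chr7:46845554-46845803) held 3 places, beginning at −145, −48 and −34 from the start, of which 2 were the palindrome CACGTG, which is also an E-box. Pgk1 (phosphoglycerate kinase; chrX:106186850-106187099) held 2, and Pgam1 (phosphoglycerate mutase; chr19:41911621-41911870) and P4ha2 (a collagen prolyl hydroxylase subunit; chr11:54100674-54100923) held 1 each. Slc16a3 (a lactate exporter) held 2, at −27 and −14, and is printed only up to position −15 (chr11:120948817-120949052), which leaves out the second.
Ldha: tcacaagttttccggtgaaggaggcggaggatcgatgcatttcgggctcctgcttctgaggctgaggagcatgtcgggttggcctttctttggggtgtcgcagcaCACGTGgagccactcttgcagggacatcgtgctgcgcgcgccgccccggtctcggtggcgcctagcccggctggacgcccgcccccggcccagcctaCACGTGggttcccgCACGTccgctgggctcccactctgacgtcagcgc
Pgk1: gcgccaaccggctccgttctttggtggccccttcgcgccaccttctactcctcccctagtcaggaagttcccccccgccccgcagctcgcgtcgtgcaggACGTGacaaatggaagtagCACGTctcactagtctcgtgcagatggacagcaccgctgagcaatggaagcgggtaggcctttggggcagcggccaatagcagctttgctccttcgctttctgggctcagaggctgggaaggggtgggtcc
Pgam1: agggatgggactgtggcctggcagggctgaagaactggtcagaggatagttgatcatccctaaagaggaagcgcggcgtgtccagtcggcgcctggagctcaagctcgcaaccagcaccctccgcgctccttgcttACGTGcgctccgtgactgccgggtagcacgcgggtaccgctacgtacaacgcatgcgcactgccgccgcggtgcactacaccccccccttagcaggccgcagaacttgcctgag
Slc16a3: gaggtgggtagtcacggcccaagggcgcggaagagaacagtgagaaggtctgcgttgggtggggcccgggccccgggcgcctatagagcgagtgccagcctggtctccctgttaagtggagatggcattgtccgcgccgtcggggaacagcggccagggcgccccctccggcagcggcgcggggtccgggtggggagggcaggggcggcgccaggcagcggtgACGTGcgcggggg
P4ha2: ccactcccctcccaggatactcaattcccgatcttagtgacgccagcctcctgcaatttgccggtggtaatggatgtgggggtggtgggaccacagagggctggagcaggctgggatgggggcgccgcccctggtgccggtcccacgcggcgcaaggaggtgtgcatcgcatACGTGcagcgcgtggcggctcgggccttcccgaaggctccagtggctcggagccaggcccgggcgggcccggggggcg

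The first comparison asked how the host changed these genes in wild-type tumors. In Balb/c wild-type tumors, transcripts of the glucose transporter Slc2a3, the lactate exporter Slc16a3 and the regulator Pfkfb3 were higher than in NSG wild-type tumors, whereas 4 glycolytic enzymes, the kinase Pdk1, both carbonic anhydrases and both collagen prolyl hydroxylase subunits were lower. With edgeR's quasi-likelihood test and Benjamini-Hochberg adjustment over 15310 genes, 19 of the 43 genes (44.2%) passed an adjusted p of 0.05, 8 higher and 11 lower, against a background of 31.5% of all genes tested (15.3% higher and 16.2% lower). The glycolytic enzymes had a median log2 fold change of −0.51, the other hypoxia targets −0.20, the carriers and regulators 0.41 and all genes −0.08. The value of the other targets was −0.10 without the Balb/c clone 54 library, −0.11 without the parental Balb/c library and with RLE size factors, −0.13 without the parental NSG library and −0.36 with total-count scaling, which also took the carriers to 0.25. The lines were the same in both hosts, and with the line as a replicate block 7 of the 19 passed (16.3% of the 43, against 13.5% of all genes): Pfkp, Aldoc, Pfkfb3, Pdk1, Car9, P4ha2 and Angptl4. In all, 13 of the 43 had both Balb/c libraries above both NSG libraries (background 35.4%) and 24 had both below (background 41%). Leaving out 1 library at a time gave between 4 and 22 members called, with 4 (9.3%) without either parental library and 6 (14%) without either vCas9 library. In these 4 fits 5.32% to 9.92% of all genes were called, and in the fit with 22 members (51.2%) 40.2%.

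The 14 enzymes were divided in this comparison. Pfkp, the platelet-type phosphofructokinase (chromosome 13, 6579768 to 6648777), was the only enzyme that rose. Its level was 266 and 240 CPM in NSG wild type and 556 and 576 CPM in Balb/c tumors of that genotype (log2 fold change 1.16, SE 0.22, edgeR adjusted p = 0.00903), and no library of one host reached the range of the other. Its family member Pfkl, the liver-type enzyme of the same step, went the other way, from 305 and 249 to 160 and 174 CPM (−0.73, SE 0.17, edgeR adjusted p = 0.017). Per length of exon, Pfkl was the more abundant of the pair in NSG tumors and Pfkp in Balb/c tumors: the ratio of Pfkp to Pfkl in RPKM (CPM per kilobase of exon) was 0.434 and 0.480 in NSG wild type, 0.627 and 0.429 in NSG knockout, 1.73 and 1.65 in Balb/c wild type and 1.22 and 1.20 in Balb/c knockout. All 4 lines thus had the higher ratio in Balb/c.

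Aldoc, the minor aldolase here, fell from 32.8 and 26.2 CPM to 8.24 and 14.1 CPM (−1.39, SE 0.29, edgeR adjusted p = 0.012). Eno1, the main enolase, fell from 928 and 768 to 449 and 557 CPM (−0.75, SE 0.22, edgeR adjusted p = 0.0339). Pgam1 (chromosome 19, 41911923 to 41918660) fell from 155 and 144 to 97.8 and 102 CPM (−0.58, SE 0.16, edgeR adjusted p = 0.0318). In these 3 enzymes every Balb/c wild-type library lay below every NSG wild-type library, though Eno1 and Pgam1 did not pass with RLE size factors or with no filter. Total-count scaling called Tpi1, Gapdh, Pgk1 and Ldha lower as well. The other 9 enzymes did not pass: Pgk1 had the smallest edgeR adjusted p of them, 0.0563, at 508 and 411 CPM against 261 and 301 CPM (−0.71, SE 0.24), and Ldha stood at 1124 and 947 against 733 and 778 CPM (−0.46, SE 0.21, edgeR adjusted p = 0.122). Hk1 and Hk2, which trap glucose in the cell as glucose-6-phosphate, had log2 fold changes of 0.39 and 0.08. In all, 11 of the 14 enzymes had a negative value and 3 a positive one.

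Among the carriers and regulators, Slc2a3, a high-affinity glucose transporter, rose from 45.8 and 55.9 to 150 and 174 CPM (3.19-fold, log2 1.67, SE 0.38, edgeR adjusted p = 0.0165). Pfkfb3, whose product makes the activator of phosphofructokinase, rose from 145 and 142 to 406 and 431 CPM (2.92-fold, log2 1.54, SE 0.28, edgeR adjusted p = 0.00763). Slc16a3, which exports lactate, rose from 252 and 288 to 725 and 807 CPM (2.83-fold, log2 1.50, SE 0.38, edgeR adjusted p = 0.0225). These 3 genes were above the NSG range in both Balb/c wild-type libraries. Pdk1, which switches off pyruvate dehydrogenase, fell instead, from 77.8 and 65.4 to 29.3 and 34.9 CPM (−1.16, SE 0.19, edgeR adjusted p = 0.00632). Slc16a1, a lactate carrier that works in either direction, fell from 217 and 164 to 101 and 81.2 CPM (−1.06, SE 0.28, edgeR adjusted p = 0.0266). Slc2a1, the main glucose transporter, stood at 348 and 310 against 415 and 451 CPM and did not pass (0.39, SE 0.27, edgeR adjusted p = 0.286), nor did Pfkfb4 (0.41, SE 0.17, edgeR adjusted p = 0.0969).

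The carrier pairs changed their balance with the host. The RPKM ratio of Slc16a3 to Slc16a1 was 0.969 and 1.47 in NSG wild type and 1.91 and 0.800 in NSG knockout, against 5.96 and 8.27 in Balb/c wild type and 3.33 and 10.6 in Balb/c knockout. Every Balb/c library therefore had a higher share of the exporter than every NSG library. Slc2a1 stayed the more abundant glucose transporter per length in all 8 libraries: its RPKM was between 40.7 and 129, and that of Slc2a3 between 4.12 and 31.8. Hk2 exceeded Hk1 in every library too, with RPKM ratios from 2.14 to 5.12.

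Among the other hypoxia targets, Car9 (chromosome 4, 43506966 to 43513729), a carbonic anhydrase of the cell surface that is widely used as a tissue marker of hypoxia, changed most. It stood at 76.7 and 71.9 CPM in NSG against 11.0 and 16.6 CPM in wild-type Balb/c tumors, 5.36-fold lower (log2 −2.42, SE 0.33, edgeR adjusted p = 0.00326). Angptl4, a secreted inhibitor of lipoprotein lipase, fell from 51.6 and 99.2 to 22.3 and 27.3 CPM (−1.60, SE 0.31, edgeR adjusted p = 0.00958). Car12, a related anhydrase, fell from 19.3 and 36.8 to 10.7 and 11.2 CPM (−1.36, SE 0.35, edgeR adjusted p = 0.0232). None of these overlapped between hosts. P4ha2 and P4ha1, alternative catalytic subunits of collagen prolyl hydroxylase, fell by 1.24 (SE 0.19, edgeR adjusted p = 0.00451) and 0.68 (SE 0.21, edgeR adjusted p = 0.039) on the log2 scale. P4ha2 was at 62.0 and 85.1 against 31.5 and 30.7 CPM, and P4ha1 at 355 and 321 against 231 and 190 CPM. The call of P4ha1 was lost with RLE size factors and with no filter. Without the vCas9 NSG library the value was −1.06 for Angptl4 and −0.82 for Car12, which then did not pass.

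Not all targets of HIF were lower in Balb/c wild type. Bhlhe40, a transcriptional repressor, rose from 338 and 353 to 628 and 732 CPM (0.98, SE 0.25, edgeR adjusted p = 0.0242). Egln3, an oxygen-sensing hydroxylase that HIF induces, rose from 103 and 93.6 to 180 and 172 CPM (0.84, SE 0.26, edgeR adjusted p = 0.0406). Both had no overlap between the hosts. Vegfa, which drives vessel growth, stood at 597 and 729 against 621 and 809 CPM, with overlapping libraries (0.11, SE 0.23, edgeR adjusted p = 0.74). Bnip3, a mitophagy receptor, was at 216 and 171 against 140 and 144 CPM (−0.45, SE 0.26, edgeR adjusted p = 0.211), and its relative Bnip3l at 165 and 152 against 150 and 139 CPM (−0.13, SE 0.19, edgeR adjusted p = 0.616). Ddit4, an inhibitor of mTORC signaling, and Kdm3a, a histone demethylase, did not pass either, with log2 fold changes of −0.59 and 0.51.

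Of the HIF subunits, Hif1a (chromosome 12, 73901375 to 73947530) was at 836 and 855 CPM in NSG wild type against 1470 and 1413 CPM in the wild-type Balb/c libraries (0.77, SE 0.23, edgeR adjusted p = 0.0402). Its partner Arnt was at 99.9 and 98.6 against 152 and 139 CPM (0.55, SE 0.15, edgeR adjusted p = 0.0289). Both rose, though neither passed when libraries were scaled by total counts. Epas1, the other alpha subunit, did not pass (0.26, SE 0.30, edgeR adjusted p = 0.518) and was the minor form per length in every library, with an RPKM of 6.70 to 21.5 against 92.3 to 249 for Hif1a. These are transcript levels, and the stability of the protein was not measured.

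**Figure D1:**
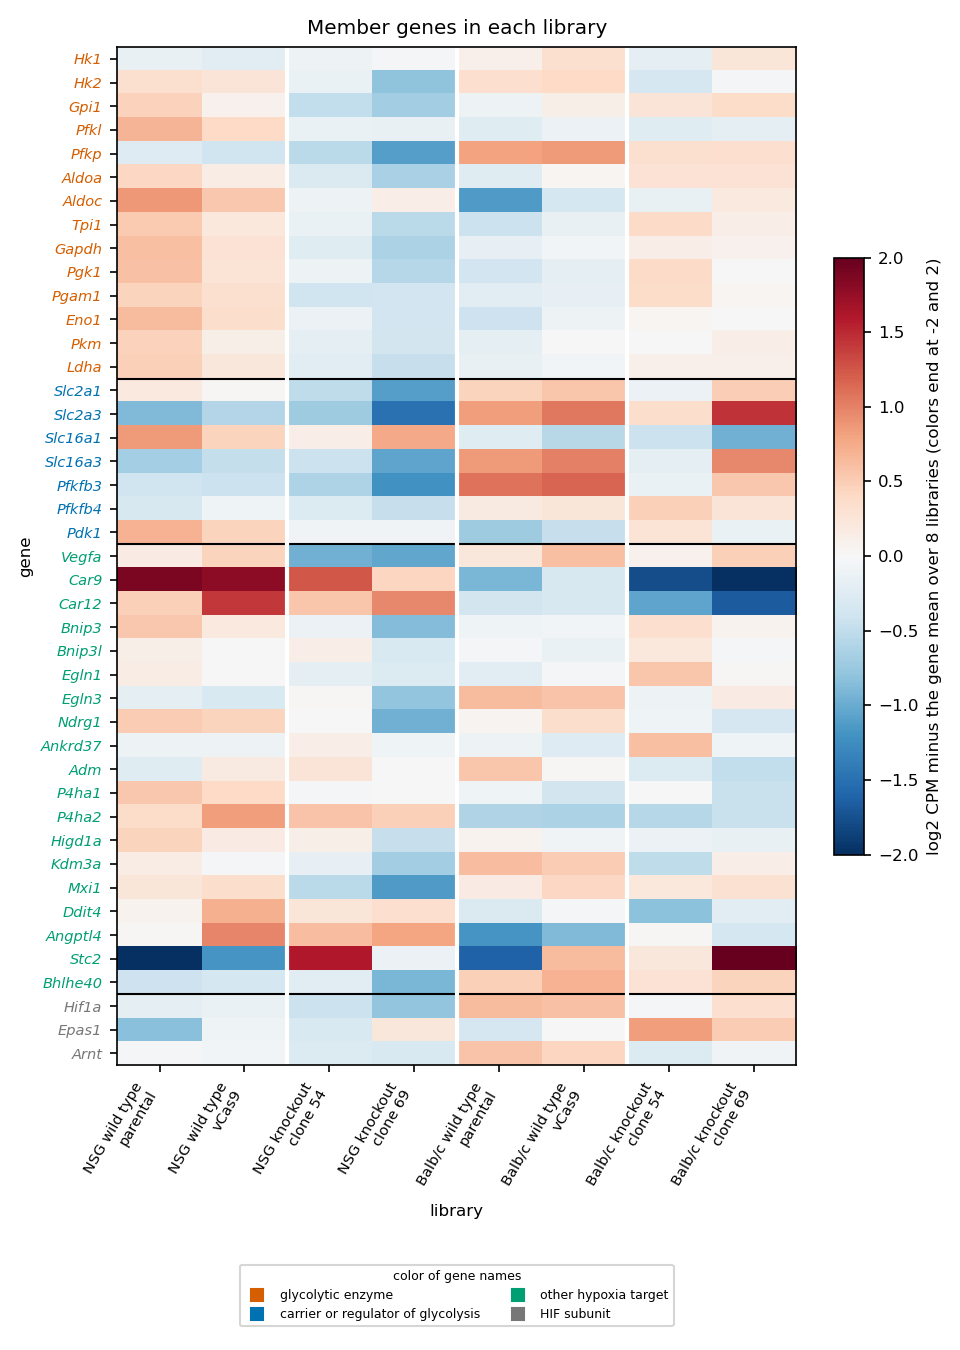
Heat map of the 43 genes (rows, grouped by role) in the 8 libraries (columns, by host and CD95 status), coloured by log2 CPM minus the gene's mean over the libraries. For 13 of the 14 enzymes the NSG knockout columns are lower than the NSG wild-type columns, while Slc2a3, Slc16a3 and Pfkfb3 are higher in Balb/c wild type than in any NSG column and Car9 is lowest in Balb/c.

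Cell markers moved with the host in these wild-type tumors. Summed neutrophil markers were at 1339 and 1688 CPM in NSG and 7563 and 5932 CPM in Balb/c, with 4 of 8 markers called higher and 0 lower. Summed proliferation markers were at 768 and 699 against 368 and 357 CPM, with 3 of 4 called lower. Fibroblast markers summed to 6449 and 9643 against 4969 and 3850 CPM, with 0 of 5 called. Endothelial markers summed to 212 and 378 against 177 and 250 CPM, with 2 of 7 called lower, and macrophage markers to 2826 and 2892 against 1974 and 2293 CPM, with 1 of 6 called higher and 1 lower. Adipocyte markers summed to 15.7 and 16.3 against 17.8 and 22.0 CPM, with 1 of 5 called higher and 2 lower. Lep, an adipocyte marker, was at 0 in Balb/c wild type, while no neutrophil, macrophage, fibroblast, endothelial, erythroid, epithelial or proliferation marker was at 0 in any group. T and NK cell markers summed to between 3.64 and 7.95 CPM in the 4 NSG libraries, where Ncr1 was at 0 in both genotypes and Nkg7 in wild type, and to between 215 and 236 CPM in the 4 Balb/c libraries, with 6 of 6 called higher in wild type. The part of these cells in the differences of the glycolysis and hypoxia genes was not tested.

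The second comparison set the hosts against each other in CD95 knockout tumors, and here most glycolytic enzymes had higher values in Balb/c. Gpi1, Pfkp, Aldoa and Pgam1 rose, as did glucose transporters Slc2a1 and Slc2a3, the exporter Slc16a3, both Pfkfb genes and Vegfa, while Car9, Car12, P4ha2 and Slc16a1 fell as they did in wild-type tumors. By edgeR's quasi-likelihood test 17 of 43 (39.5%) passed, 13 higher and 4 lower, against a background of 31.1% (15.7% higher and 15.4% lower). The median log2 fold change was 0.48 for the enzymes, 0.99 for carriers and regulators, 0.19 for the other hypoxia targets and 0.02 for all genes. The enzyme median was 0.32 without the NSG clone 69 library and 0.30 with total-count scaling. That of the carriers was 0.66 without the Balb/c clone 69 library. The value of the other targets had no stable sign, at −0.039 without the NSG clone 69 library and 0.41 without the NSG clone 54 library. It was 0.028 and 0.025 without the Balb/c clone 54 and clone 69 libraries, and 0.024 with total-count scaling. The Balb/c libraries lay above the NSG libraries without overlap in 22 members (background 32.4%) and below in 8 (background 31.9%). With the line as a replicate block 8 passed, namely Pfkp, Slc2a3, Pfkfb4, Vegfa, Car9, Car12, P4ha2 and Mxi1, a share (18.6%) at the background of that fit (18.8%). Scaling by total counts ended the calls of Aldoa, Pgam1, Slc16a3, Pfkfb4 and Hif1a. Fitting only the 4 compared libraries left 5 called (11.6%, against 15.9% of all genes), namely Slc2a3, Vegfa, Car9, Car12 and P4ha2. Without the Balb/c clone 54 library, which stood apart by its macrophage markers, 15 passed (34.9%, against 30.4% of all genes), Aldoa and Pgam1 being lost. Without the Balb/c clone 69 library 12 passed, a share of 27.9% that was below the 30.5% of all genes. Leaving out the NSG clone 69 library gave 7 (16.3%, against 16.2%), and leaving out either Balb/c wild-type library, which enters only through the joint fit, gave 11 (25.6%, against 25.3% and 25.4%).

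Gpi1, which isomerises glucose-6-phosphate, was at 335 and 290 CPM in NSG knockout and 560 and 605 CPM in Balb/c knockout (0.90, SE 0.21, edgeR adjusted p = 0.0156). Pfkp was at 218 and 147 against 396 and 400 CPM (1.12, SE 0.22, edgeR adjusted p = 0.00789). Aldoa, the main aldolase, was at 645 and 503 against 970 and 965 CPM (0.75, SE 0.23, edgeR adjusted p = 0.0393), and passed in none of the 8 fits that left out a library. All 3 had separate ranges in the hosts. Pgam1 was at 87.0 and 88.1 against 147 and 117 CPM (0.59, SE 0.16, edgeR adjusted p = 0.0289). It was the only member that passed in both host comparisons with opposite signs, a pattern seen in 1 of 43 members (2.33%) and 0.268% of all genes. The call did not hold with the line as a block in either genotype, nor with RLE size factors, no filter or DESeq2 in wild type or total-count scaling in knockout, and it passed in 1 of the 8 fits in knockout tumors that left out a library, with a value of 0.40 without the Balb/c clone 54 library. Pfkl, which fell with the Balb/c host in wild type, was at 173 and 171 against 161 and 165 CPM (−0.08, SE 0.17, edgeR adjusted p = 0.763).

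Slc2a3 was at 51.3 and 29.8 CPM in NSG knockout and 107 and 230 CPM in Balb/c knockout (2.06, SE 0.39, edgeR adjusted p = 0.00662). Slc2a1 was at 215 and 143 against 283 and 429 CPM (0.99, SE 0.27, edgeR adjusted p = 0.0278). Slc16a3 rose by 1.20 on the log2 scale (SE 0.38, edgeR adjusted p = 0.0436), from 299 and 194 to 354 and 783 CPM. The spread between clones 54 and 69 within Balb/c was wide for these 3 carriers, clone 69 being the higher in each. Without that library Slc16a3 had a value of 0.52 and Slc2a1 of 0.66, and of the 8 fits that left out a library Slc16a3 passed in 1 and Slc2a1 in 2. Pfkfb3 was at 125 and 82.2 against 175 and 278 CPM (1.13, SE 0.27, edgeR adjusted p = 0.0179), and Pfkfb4, its relative, at 33.3 and 28.9 against 55.4 and 47.6 CPM (0.73, SE 0.17, edgeR adjusted p = 0.0155). Slc16a1 fell by 1.15 (SE 0.28, edgeR adjusted p = 0.0186), from 131 and 202 to 88.3 and 61.6 CPM.

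Vegfa (chromosome 17, 46016993 to 46032369) was at 273 and 260 CPM in NSG knockout and 565 and 738 CPM in Balb/c knockout, 2.44-fold higher (log2 1.29, SE 0.24, edgeR adjusted p = 0.00598). Mxi1, an antagonist of MYC, had the same order, at 71.4 and 47.3 against 119 and 128 CPM (1.06, SE 0.22, edgeR adjusted p = 0.00912). Bhlhe40 rose again, from 383 and 239 to 549 and 610 CPM (0.90, SE 0.25, edgeR adjusted p = 0.0302), and Hif1a from 700 and 544 to 922 and 1194 CPM (0.77, SE 0.23, edgeR adjusted p = 0.0399). Vegfa and Mxi1 passed in each of the 8 fits that left out 1 library, Bhlhe40 in 2 and Hif1a in 1 of them. Without the NSG clone 69 library the value of Bhlhe40 was 0.60.

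Car9 was at 49.2 and 28.1 CPM in NSG knockout and 6.08 and 4.08 CPM in Balb/c knockout, 7.54-fold lower (log2 −2.91, SE 0.35, edgeR adjusted p = 0.00116). Car12 was at 20.4 and 27.0 against 6.67 and 4.38 CPM (−2.10, SE 0.36, edgeR adjusted p = 0.00434). P4ha2 was at 71.1 and 66.8 against 32.2 and 35.3 CPM (−1.03, SE 0.19, edgeR adjusted p = 0.00541). The hosts did not overlap in any of the 3, and Car9 and P4ha2 were the members that passed in all 8 fits that left out a library in both host comparisons. P4ha1 fell in wild-type tumors but had a log2 fold change of −0.18 here (SE 0.21, edgeR adjusted p = 0.544), at 237 and 243 against 244 and 180 CPM.

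Across both genotypes, 6 members were called higher in Balb/c each time (14%, against 8.49% of all genes): Pfkp, Slc2a3, Slc16a3, Pfkfb3, Bhlhe40 and Hif1a. Another 4 were called lower each time (9.3%, against 7.79%), namely Slc16a1, Car9, Car12 and P4ha2. These shares lay near the background, most closely for the genes called lower. With the line as a block, Pfkp alone of the first set and Car9 and P4ha2 of the second passed in both genotypes. Vegfa, Slc2a1, Pfkfb4 and Epas1 were also higher in Balb/c than in NSG in all 4 lines, and Pfkl, Ddit4 and Angptl4 lower in all 4, without passing in both comparisons. The share of all genes with the same sign in all 4 lines was not counted, so this order is a description only. Some of these log2 differences were small, at 0.057 for Vegfa in the parental line, 0.091 for Epas1 in vCas9 and −0.051 for Pfkl in clone 69. A negative log2 fold change in wild type beside a positive one in knockout was found in 10 of 14 enzymes (71.4%) and 7 of 19 other hypoxia targets (36.8%), against 17.1% of all genes.

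**Figure D2:**
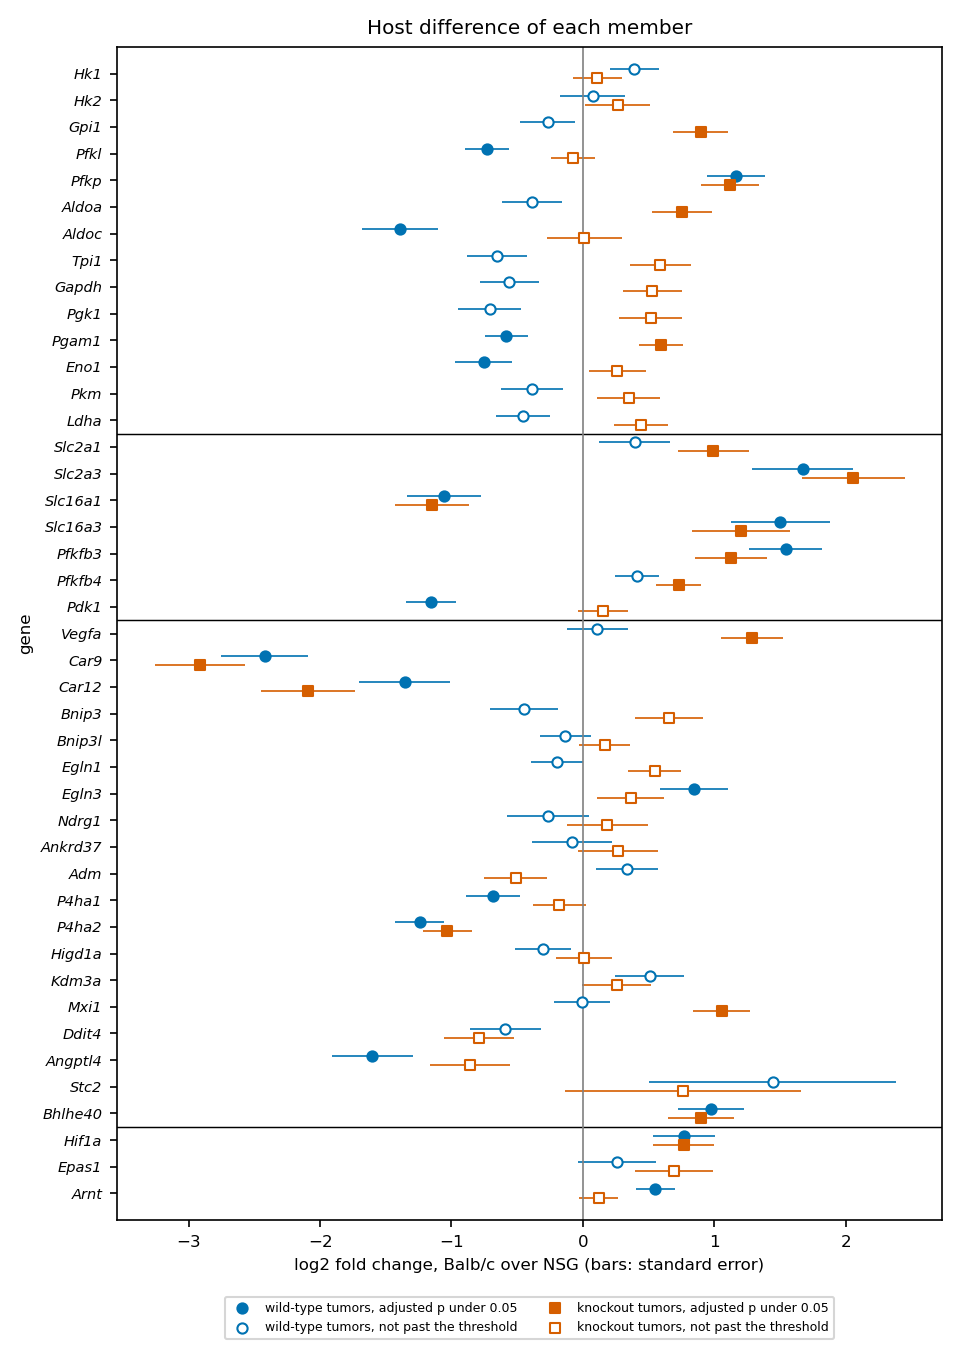
Log2 fold change of each member between Balb/c and NSG, in wild-type tumors and in knockout tumors, with bars of 1 SE and members grouped by role. Car9 lies lowest in both genotypes, at −2.42 and −2.91, and most enzymes lie below 0 in wild type and above 0 in knockout.

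Marker levels also moved with the host in knockout tumors. Macrophage markers summed to 1526 and 1943 CPM in NSG and 9615 and 3987 CPM in Balb/c, with 6 of 6 called higher. Fibroblast markers summed to 12497 and 12366 against 5192 and 1656 CPM, with 4 of 5 called lower, and proliferation markers to 519 and 897 against 339 and 227 CPM, with 4 of 4 called lower. Neutrophil markers summed to 3118 and 1474 against 519 and 2505 CPM, with 1 of 8 called higher and 1 lower. Erythroid markers summed to 3203 and 1722 against 289 and 1372 CPM, with 1 of 3 called lower, and adipocyte markers to 32.7 and 30.6 against 17.6 and 25.2 CPM, with 4 of 5 called lower. T and NK cell markers were called higher in 6 of 6 cases, and endothelial markers, at 275 and 435 against 490 and 436 CPM, in 1 of 7. Epithelial markers ranged from 2138 to 3246 CPM in NSG and from 539 to 4034 CPM in Balb/c, with 0 of 6 called. Their part in the differences above was not tested.

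The third comparison asked what CD95 knockout did in NSG hosts. The glycolytic enzymes lay lower in both knockout clones than in both wild-type lines in 13 of 14 cases (92.9%, against 25.8% of all genes), with Hk1 the exception. Over all members 27 of 43 were lower without overlap, and 3 were higher (background 26.7%). No member passed edgeR's quasi-likelihood test, in a comparison that called 0.0131% of all genes (2 of 15310). At an unadjusted p under 0.05, the edgeR count was 21 of 43 members (48.8%), against 14% of all genes. It was 12 of 14 for the enzymes and 7 of 19 (36.8%) for the other hypoxia targets. DESeq2 called 9 members (20.9%, against 2.22% of all genes), all lower: Gpi1, Pfkl, Aldoa, Gapdh, Pgam1, Eno1, Ldha, Vegfa and Mxi1. The median log2 fold change was −0.71 for the enzymes, −0.33 for carriers and regulators, −0.24 for the other hypoxia targets and 0.01 for all genes. Without clone 54 in NSG the carriers were at −0.65 and the other targets at −0.48, without clone 69 in NSG the carriers were at −0.20, and with total-count scaling the other targets were at −0.15. Because the NSG wild-type libraries also serve the host comparison in wild type, the values of these comparisons are not independent. Marker sums also lay apart in this comparison: from wild type to knockout the epithelial markers went from 1140 and 1495 to 3246 and 2138 CPM, the fibroblast markers from 6449 and 9643 to 12497 and 12366 CPM, the erythroid markers from 1062 and 1408 to 3203 and 1722 CPM and the macrophage markers from 2826 and 2892 to 1526 and 1943 CPM. Adipocyte markers went from 15.7 and 16.3 to 32.7 and 30.6 CPM. Skeletal muscle markers went from 14.3 and 18.5 to 24.6 and 31.3 CPM. T and NK cell markers, near the floor, went from 7.69 and 7.95 to 3.64 and 5.67 CPM. No marker of these lists (6, 5, 3, 6, 5, 6 and 6 genes) was called by edgeR. None but the T and NK cell markers Ncr1 and Nkg7 was at 0 in either group. The part of these cells in the enzyme values was not tested.

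Several steps of the pathway shared this pattern. Gapdh, the dehydrogenase at its centre, was at 1159 and 934 CPM in wild type and 648 and 494 CPM in knockout (−0.87, SE 0.23, edgeR adjusted p = 0.228). Pgk1, which makes the first ATP of the pathway, was at 508 and 411 against 316 and 230 CPM (−0.75, SE 0.24, edgeR adjusted p = 0.271). Ldha was at 1124 and 947 against 693 and 589 CPM (−0.69, SE 0.21, edgeR adjusted p = 0.251). In each, both knockout libraries were under both wild-type libraries, and clone 69 was the lower of the clones. Aldoa (−0.76), Tpi1 (−0.70), Eno1 (−0.74) and Pkm (−0.58) had values of similar size. Hk2 was at 450 and 434 against 329 and 206 CPM (−0.72, SE 0.25, edgeR adjusted p = 0.289), whereas Hk1 was at 127 and 121 against 131 and 138 CPM (0.12, SE 0.19). With 1 library left out, the value of Hk2 ranged from −1.10 to −0.43.

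Vegfa had the smallest adjusted p of the 43 in this comparison. It was at 597 and 729 CPM in NSG wild type and 273 and 260 CPM in NSG knockout, with the knockout libraries below both wild-type libraries (log2 fold change −1.31, SE 0.24, edgeR adjusted p = 0.141). Slc2a1 (−0.88), Mxi1 (−1.09), Bnip3 (−0.82) and Car9 (−0.94) also had both knockout libraries below both wild-type libraries. Of the 19 other hypoxia targets, 9 had this order (47.4%, against 25.8% of all genes). Further targets of that role did not share it. Angptl4 was at 51.6 and 99.2 against 77.7 and 87.2 CPM, Ddit4 at 101 and 158 against 114 and 122 CPM, and Egln3 at 103 and 93.6 against 118 and 67.0 CPM, all with overlapping libraries. Stc2, a secreted glycoprotein, had the largest positive value of the members, at 9.49 and 16.8 against 115 and 35.1 CPM, with a wide error (2.52, SE 0.96, edgeR adjusted p = 0.317). With 1 library left out, Stc2 ranged from 1.42 to 3.13, Bnip3 from −1.24 to −0.50 and Car9 from −1.40 to −0.59.

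In Balb/c hosts the enzymes leaned the other way. In 9 of the 14 (64.3%, against 32.9% of all genes) both knockout libraries were above both wild-type libraries, and the enzymes had a median log2 fold change of 0.24, against 0.06 for all genes. That median was 0.10 without the parental Balb/c library, 0.13 without the Balb/c clone 54 library and 0.15 with RLE size factors. The carriers and regulators had a median of −0.28, as low as −0.59 without the Balb/c clone 69 library. It was −0.071 without the Balb/c clone 54 library and −0.17 without the parental Balb/c library. The other hypoxia targets had a median of −0.13, with 6 of 19 above and 8 of 19 below without overlap (backgrounds 32.9% and 29.3%). That value was −0.21 and −0.20 without the parental and vCas9 Balb/c libraries, −0.23 with RLE size factors and −0.088 with total-count scaling. No member passed edgeR's quasi-likelihood test, which called 0.176% of all genes (0.0457% higher and 0.131% lower). At an unadjusted p under 0.05, edgeR's count was 13 of 43 members (30.2%) and 4 of 14 enzymes (28.6%). Both were near the share among all genes (30.9%). DESeq2 called 5 (11.6%, against 14.4% of all genes), all lower: Pfkfb3, Car9, Car12, Kdm3a and Arnt. Without the Balb/c clone 69 library edgeR called 7 members (16.3%, against 25.6% of all genes), and without the clone 54 library 0. Neither share exceeds its background. Marker sums lay apart in this comparison too: from wild type to knockout the neutrophil markers went from 7563 and 5932 to 519 and 2505 CPM, the endothelial markers from 177 and 250 to 490 and 436 CPM and the macrophage markers from 1974 and 2293 to 9615 and 3987 CPM. Erythroid markers went from 1671 and 1536 to 289 and 1372 CPM and proliferation markers from 368 and 357 to 339 and 227 CPM. T and NK cell markers went from 215 and 216 to 223 and 236 CPM. No marker of these lists (8, 7, 6, 3, 4 and 6 genes) was called by edgeR, and none was at 0 in either group. Their part in the values of the members was not tested.

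Pgk1 had 261 and 301 CPM in wild-type tumors and 443 and 337 CPM in knockout tumors (0.47, SE 0.24, edgeR adjusted p = 0.216). Pdk1 was at 29.3 and 34.9 against 57.5 and 43.8 CPM (0.66, SE 0.19, edgeR adjusted p = 0.0767). Aldoc was at 8.24 and 14.1 against 16.3 and 20.8 CPM (0.72, SE 0.29, edgeR adjusted p = 0.137). These genes had knockout libraries above the wild-type range. With 1 library left out, the value ranged from 0.16 to 0.66 for Pgk1, 0.35 to 0.84 for Pdk1 and 0.33 to 1.08 for Aldoc. Pfkfb3 was on the other side, at 406 and 431 against 175 and 278 CPM (−0.89, SE 0.27, edgeR adjusted p = 0.0838), and so was Car9, at 11.0 and 16.6 against 6.08 and 4.08 CPM (−1.44, SE 0.34, edgeR adjusted p = 0.0597). Arnt, at 152 and 139 against 84.5 and 98.0 CPM, had the smallest adjusted p of the members here (−0.67, SE 0.15, edgeR adjusted p = 0.057). Kdm3a was at 240 and 222 against 110 and 172 CPM (−0.71, SE 0.26, edgeR adjusted p = 0.117). Vegfa was at 621 and 809 against 565 and 738 CPM, with overlapping libraries (−0.13, SE 0.23, edgeR adjusted p = 0.718).

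**Figure D3:**
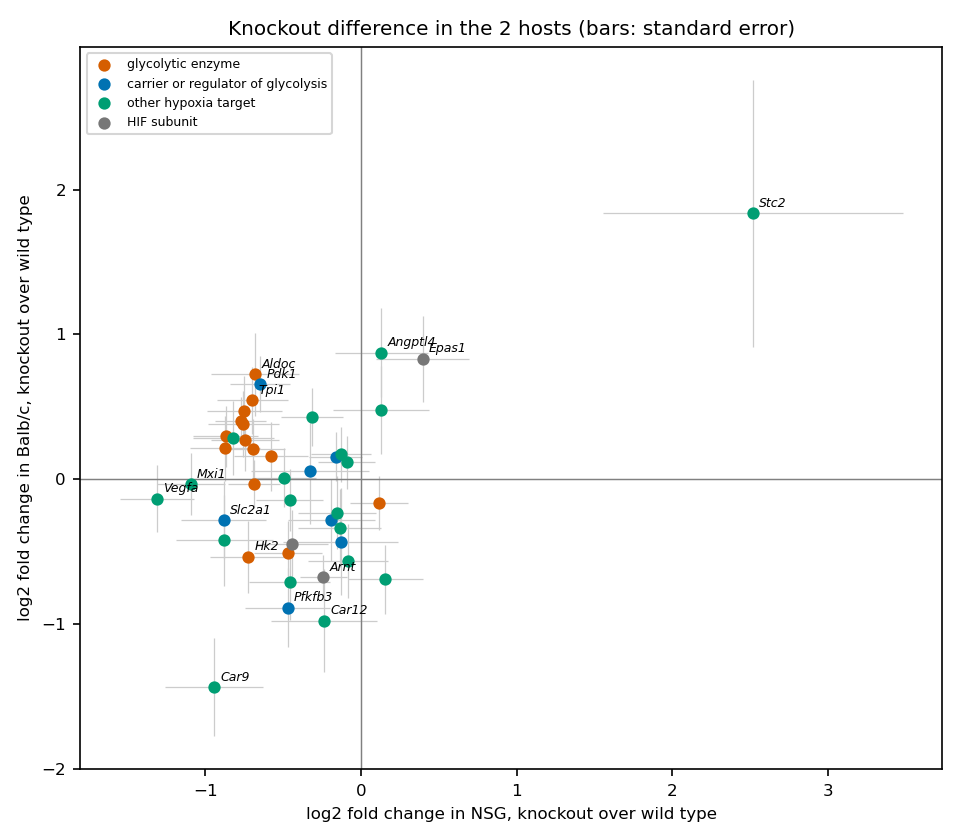
Log2 fold change of each member between CD95 knockout and wild type, in NSG tumors (horizontal axis) and in Balb/c tumors (vertical axis). Bars are 1 SE, and points are coloured by role. In NSG 13 of 14 enzymes lie below 0, and in Balb/c 10 of 14 lie above 0, while no member passed the threshold in either host.

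Whether the knockout difference depended on the host was tested as an interaction. The enzymes had a median interaction of 1.05 on the log2 scale (12 of 14 positive), the other hypoxia targets 0.30 (11 of 19 positive), the carriers and regulators 0.32, the HIF subunits −0.00 and all genes 0.03. With 1 library left out the enzyme value stayed between 0.88 and 1.19, while that of the other targets fell to 0.051 without NSG clone 69 and 0.064 without Balb/c clone 54, and that of the carriers to 0.086 without Balb/c clone 54 and 0.15 without Balb/c clone 69. No member passed edgeR's quasi-likelihood test, and 0% of all 15310 genes did. At an unadjusted p under 0.05 edgeR's count was 16 of 43 members (37.2%) and 10 of 14 enzymes, against 22.5% of all genes. DESeq2 called 10 (23.3%, against 6.36% of all genes): Gpi1, Aldoa, Tpi1, Gapdh, Pgk1, Pgam1, Eno1, Ldha, Pdk1 and Vegfa. The smallest edgeR adjusted p was that of Pgam1, 0.0839 (interaction 1.18, SE 0.23), followed by Pdk1 with 0.0893 (1.31, SE 0.27). Leaving out the Balb/c clone 69 library gave 6 called members (Gpi1, Tpi1, Pgk1, Pgam1, Pdk1 and Egln1), a share of 14% against 15.5% of all genes, and leaving out any other library gave 0.

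The log2 fold change was negative in NSG and positive in Balb/c for 18 of 43 members (41.9%) and 10 of 14 enzymes (71.4%), against 25.1% of all genes. In 12 of 43 members (27.9%, against 9.15% of all genes) both knockout libraries were below both wild-type libraries in NSG and above them in Balb/c. Of these, 9 were enzymes (9 of 14, 64.3%): Gpi1, Aldoa, Aldoc, Tpi1, Gapdh, Pgk1, Pgam1, Eno1 and Ldha. The others were Pdk1, Bnip3 and the hydroxylase Egln1. Among the other hypoxia targets the share was 2 of 19 (10.5%), close to the background. The difference between enzymes and other targets was not itself tested, since the genes of a pathway are not independent of each other. Egln1 was at 95.6 and 87.2 CPM in NSG wild type, 75.2 and 71.8 in NSG knockout, 74.9 and 84.3 in Balb/c wild type and 127 and 87.7 in Balb/c knockout, so that its pattern rested in Balb/c on a narrow gap for clone 69. The sum of macrophage markers, like most enzymes, was lower in knockout than in wild type in NSG and higher in Balb/c. In Balb/c it was at 9615 and 3987 against 1974 and 2293 CPM. The sum of T and NK cell markers had the same order, at 223 and 236 against 215 and 216 CPM in Balb/c. No marker of either list was called in a knockout comparison, and their part in the enzyme values was not tested.

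**Figure D4:**
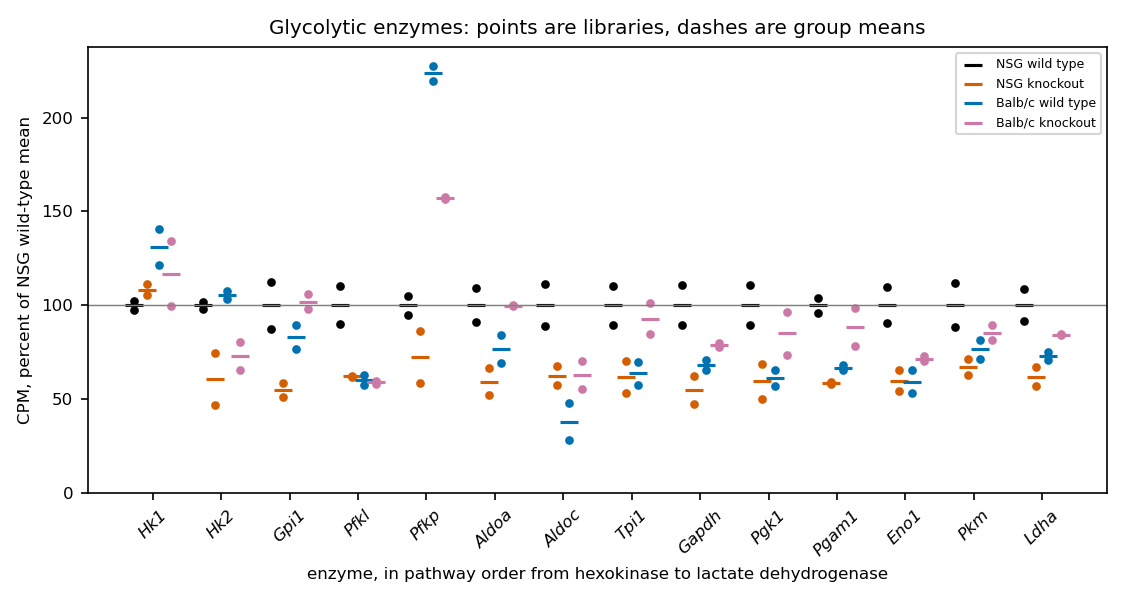
Level of each glycolytic enzyme in the order of the pathway, as a percentage of its mean CPM in NSG wild type, with 1 point per library in the 4 groups. The NSG knockout points lie below the NSG wild-type points for every enzyme but Hk1, and the Balb/c points of Pfkp lie above its points in all 4 NSG libraries.

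The pattern of Vegfa over the 8 libraries, with NSG knockout below the other groups, was shared most closely within the module by Mxi1 (Pearson r = 0.95) and Slc2a1 (r = 0.91). Among 15267 tested genes outside the module the 5 most alike were Hdac5 (r = 0.99), Osm (r = 0.98), Ddx47 (r = 0.97), Havcr2 (r = 0.97) and Mettl21c (r = 0.97). These correlations of log2 CPM are descriptions over 8 libraries that fall into 4 groups, and a ranking over so many genes gives high values for its first places.

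Further genes of the same pathways came from 4 lists made for this purpose. Over their 61 tested genes the called share was 31.1% in each host comparison, at the background of 31.5% in wild type and 31.1% in knockout. Of 12 tested glycolytic enzymes outside the module, 5 rose and 2 fell in Balb/c wild-type tumors, and 4 rose and 2 fell in knockout tumors. Both counts of rising genes, like the shares above, include Ldhc and Hkdc1, which passed the filter on low counts only through the Balb/c libraries. Hk3, a hexokinase of blood cells, was at 79.6 and 63.1 CPM in NSG wild type, 180 and 204 in Balb/c wild type, 31.2 and 22.6 in NSG knockout and 190 and 219 in Balb/c knockout (log2 1.43, SE 0.21, edgeR adjusted p = 0.00443 in wild type). In knockout tumors the difference was 2.93 on that scale (SE 0.23, edgeR adjusted p = 0.000327). Ldhc and Hkdc1 were also called higher in Balb/c tumors of either genotype. They lay at no more than 0.428 CPM in any NSG library and between 1.09 and 5.62 CPM in Balb/c. At these levels they passed the filter on low counts only through the Balb/c libraries, so no conclusion is drawn from their calls. Eno1b, a near copy of Eno1, was called lower in wild type (−0.72, SE 0.20, edgeR adjusted p = 0.029), and how reads shared by such copies were counted is not known, which holds for processed copies of other glycolytic genes too.

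Of 11 tested genes of the HIF machinery, 3 rose and 1 fell in wild-type tumors. The coactivators Crebbp (1.05, SE 0.23, edgeR adjusted p = 0.0143) and Ep300 (0.97, SE 0.21, edgeR adjusted p = 0.0139) rose, and Elob, a part of the VHL ligase, fell by 0.69 (SE 0.16, edgeR adjusted p = 0.0179). In knockout tumors 3 rose and 0 fell: Cited2, a competitor of HIF for coactivators (0.71), Egln2, a HIF hydroxylase (0.71), and Vhl (0.64). Of 26 further hypoxia targets, 4 rose and 3 fell in wild type, where Nos2, the inducible nitric oxide synthase, was at 91.1 and 74.8 against 231 and 290 CPM (1.65, SE 0.32, edgeR adjusted p = 0.0101), followed by Pygl (1.47), which breaks down glycogen, and the nuclear receptor Rora (1.34). In knockout tumors 5 rose and 3 fell, with the largest values for Nos2 (2.38), Rragd (2.26) and Lox, a collagen crosslinker, which fell by 1.99. Of 12 genes of pyruvate entry and oxidation, Dlat fell by 0.69 in wild type, and Pdk4 fell by 1.52 and Pdhb rose by 0.53 in knockout tumors. None of the genes tested in these 4 lists was called by edgeR in a knockout comparison or for the interaction, where the counts at an unadjusted p under 0.05 were 19 of 61 in NSG (31.1%, against 14% of all genes), 18 in Balb/c (29.5%, against 30.9%) and 20 for the interaction (32.8%, against 22.5%). DESeq2 called 9 of the 61 in NSG (14.8%, against 2.22%), all lower, 8 in Balb/c (13.1%, against 14.4%; 2 higher and 6 lower) and 4 for the interaction (6.56%, against 6.36%).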

How the data were processed

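The authors deposited raw read counts per Ensembl gene, 1 table for each of 8 tumor libraries. The submitters' processing notes name cutadapt 1.13, STAR, HTSeq 0.6.1p1 and DESeq2 and the builds mm10 and hg19. How these were used, the strand setting, the annotation and the treatment of reads shared by gene copies are not given in the sources used here, so values of overlapping and antisense genes and of near-identical copies are uncertain.

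Symbols were found for 24942 of 25006 identifiers. Counts were fitted in R 4.3.3 with edgeR 4.0.16 (TMM, filterByExpr, quasi-likelihood F tests) in 1 model with 4 group means and 4 residual degrees of freedom, and p-values were adjusted by Benjamini and Hochberg over 15310 genes, with a threshold of 0.05. The common biological coefficient of variation was 0.244. Standard errors were derived from the F statistic. CPM was computed from TMM library sizes and RPKM from CPM and the exon length in GENCODE M21 (GRCm38), which also gave gene positions. Library totals of 8680070 to 19655945 counts set the counting precision, and none of the 43 members had under 56 counts in a library. The replicates of each group differed by more than sampling noise (chi-square per degree of freedom 18.1 to 115). The procedure was tested on simulated data.

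The comparisons were the host in each genotype, the knockout in each host, and their interaction. Alternatives were other scalings, no filter, DESeq2 1.42.0, the compared samples alone, each library left out, and the line as a block. The line names in the titles pair the hosts. Deviations from the group means correlated between hosts with r = 0.087 for the wild-type lines and −0.35 for the knockout clones. All 43 members could be named, with library values for 1 member of each role, for family pairs and for the called members with the largest fold changes (10 per comparison, and 3 genes per further list). The members and lists were chosen with earlier results of these data known, and Gapdh, Gpi1, Ndrg1, Stc2, Eno1b and the values of Arnt and Mxi1 were singled out after their values were seen.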

Additional observations from a re-analysis of the deposited data

How the results depend on the processing

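No called member changed direction under any alternative run. With the line as a replicate block, edgeR called 7 members instead of 19 for the host in wild type and 8 instead of 17 in knockout, and 0 for the interaction. Pairing the knockout clones crosswise, an alternative chosen after seeing the data, gave 20 and 0. The knockout comparisons have no line in common within a host, so no block could be fitted there. Fitting only the 4 compared libraries left 5 members for the host in knockout (11.6%, against 15.9% of all genes) and raised the count in wild type to 26 (60.5%, against 45%). For the knockout in NSG, no filter gave 2 (Vegfa and Mxi1) and DESeq2 9 members, where edgeR with the filter gave 0. For the knockout in Balb/c these alternatives gave 3 and 5, and for the interaction 2 and 10. The cause of these differences was not tested. Leaving out 1 library gave 4 to 22 members for the host in wild type, 7 to 15 in knockout, 0 for the knockout in NSG, 0 to 7 in Balb/c and 0 to 6 for the interaction. In those fits a lone library is assumed to vary like the other groups.

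Scaling by total counts moved the median of all genes from −0.08 to −0.24 for the host in wild type and from 0.02 to −0.17 in knockout, and higher calls from 48.6% to 36.5% and from 50.5% to 37.3% of all calls. The enzyme medians became −0.66 and 0.30, and those of the other hypoxia targets −0.36 and 0.024. With RLE size factors higher calls were 57.9% and 51.4%. Leaving out 1 library moved the medians for the host in knockout to 0.32 to 0.61 for enzymes, 0.66 to 1.32 for carriers and regulators and −0.039 to 0.41 for other targets, where the sign turned without NSG clone 69. Scaling by total counts lost Aldoa, Pgam1, Slc16a3, Pfkfb4 and Hif1a for the host in knockout. With 1 library left out, the medians of the other targets ranged from −0.23 to −0.10 for the host in wild type and from −0.48 to −0.19 for the knockout in NSG. In those fits the interaction median ranged from 0.88 to 1.19 for enzymes and from 0.051 to 0.46 for other targets.

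Over all genes, the line block gave 2073 calls instead of 4825 for the host in wild type, and 2878 instead of 4757 in knockout, where the compared libraries alone gave 2428. For the knockout, no filter and DESeq2 gave 133 and 340 calls in NSG against 2, and 1774 and 2208 in Balb/c against 27, with 94 under RLE. For the interaction they gave 674 and 974 against 0, and the crossed pairing 307. Without Balb/c clone 69 there were 3917 calls for the knockout in Balb/c and 2372 for the interaction.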

Other observations

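Values of the remaining members, which passed in no comparison, are given here. Ndrg1, a stress-induced protein, was at 683 and 656 CPM in NSG wild type, 482 and 247 in NSG knockout, 498 and 614 in Balb/c wild type and 450 and 380 in Balb/c knockout, so that the highest pair was again NSG wild type. Adm, a vasodilator peptide, stayed between 23.3 and 48.5 CPM, Higd1a, a mitochondrial protein, between 33.3 and 62.6 CPM, and Ankrd37 between 5.20 and 9.42 CPM. Epas1 was at 37.5 and 63.6 CPM in NSG wild type, 54.1 and 78.7 in NSG knockout, 53.1 and 67.8 in Balb/c wild type and 120 and 95.2 in Balb/c knockout, and it was the only HIF subunit with both Balb/c knockout libraries above all other libraries. Stc2 ranged from 9.49 to 211 CPM and differed between the lines of a group, for instance from 12.4 to 58.8 CPM in Balb/c wild type and from 44.7 to 211 CPM in Balb/c knockout.

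The 43 genes together took between 0.958% and 1.53% of the counts of a library, with the highest share in the parental tumor in NSG and the lowest in the clone 69 tumor in NSG.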
